A study of Mus musculus with 13 samples.

Results

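A set of 8 genes of arginine, tryptophan and itaconate metabolism in immune cells was followed through single-cell RNA-seq of mouse colon tumors and adjacent colon mucosa. The members were chosen by symbol from the gene table of the deposited counts and are Arg1, Arg2, Nos2, Il4i1, Ido1, Acod1, Slc7a2 and Slc7a11. All 8 were found among the 32285 genes of the tables. From 3 C57BL/6J mice, 10 colon tumors and 3 pieces of neighboring mucosa were made into 13 libraries. All 3 mice were ApcMin/+; p16cis/cis, which joins a truncating Apc mutation with an engineered p16 epimutation, and all were fed the supplemented diet, and no other genotype or diet was analysed here. Mouse A (24 weeks) gave tumors 5 to 8 and mucosa 2, mouse B (23 weeks) gave tumors 9 and 10 and mucosa 3, and mouse C (20 weeks) gave tumors 1 to 4 and mucosa 1. Tumors of the same mouse are not independent animals, and the p-values below measure the spread between libraries. Per the methods, mucosa was dissociated with EDTA and TrypLE and tumors with a tumor dissociation kit, so tissue and dissociation cannot be told apart.

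Arginine is shared by competing enzymes. Arginase 1 (Arg1, cytosolic) and arginase 2 (Arg2, mitochondrial) split it into ornithine and urea, inducible nitric oxide synthase (Nos2) turns it into nitric oxide and citrulline, and the cationic amino acid transporter Slc7a2 brings it into the cell. Indoleamine 2,3-dioxygenase (Ido1) opens the kynurenine route of tryptophan, and the secreted amino acid oxidase Il4i1 deaminates phenylalanine and tryptophan. Acod1 (also called Irg1) makes itaconate from the Krebs cycle intermediate cis-aconitate in activated myeloid cells. Slc7a11 is the light chain of the cystine-glutamate exchanger xCT, which supplies cysteine for glutathione. Macrophages and neutrophils that deplete arginine or make itaconate are known from tumors, and Ido1 is known from the gut epithelium as a gene induced by interferon.

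After filtering, 85953 tumor cells and 22542 mucosal cells remained. Over all deposited barcodes, libraries held 57221300 to 93157039 UMIs (unique molecular identifiers) in tumors and 84883382 to 116133079 in mucosa, and retained cells had a median of 3654 to 5022 UMIs in tumors and 7392 to 9975 in mucosa. The labels gave 7 of the 13 libraries as female, whereas every library held 2 to 10 UMIs of Xist and 6985 to 13134 UMIs of Y-linked genes, so the sex labels went against the data and were not used. Levels are given as CPM, the UMIs of a gene for every 1000000 UMIs of the same cells. They were compared between libraries and cell classes and not between genes. Clusters were named from marker genes with none of the members among them, and a name ending in "-like" rests on those markers. Spp1+ macrophage-like cells (cluster 7) were led by Ccl24, Saa3, Il1a and Inhba, and Spp1 was not a leading gene. In tumors Spp1, Fn1 and Inhba together had 113307 UMIs in its 5048 cells and 155073 in 5828 C1q+ macrophage-like cells. These are raw UMIs and C1q+ cells were deeper (median 9382 against 6479 UMIs), so they do not rank the classes. The name rests on a marker list as a whole and not on Spp1 alone. At a finer clustering 2236 cells of this name scored higher on the Ly6c+ monocyte list (4.92 against 4.58). Cells of clusters 4 and 10, named tumor epithelial-like from Wnt target markers, numbered 10723 in tumors and 122 in mucosa. Cluster 15, led by Cxcl5 and Krt17 and with 1986 cells in tumors, also held these markers and is described by its leading genes. Mucosa held few myeloid cells, with 12 neutrophil-like, 4 Spp1+ macrophage-like, 50 C1q+ macrophage-like and 14 mature dendritic cell (DC)-like cells in all. A further cluster of 42 cells led by Ngp, S100a9, S100a8 and Retnlg (cluster 43), with neutrophil markers, 40 mucosal cells and 95.2% of its cells from mucosa 2, was left unnamed by the naming rule and is not counted among these. Fewer than 3 mucosa samples held 20 cells of any of these classes, so tumors and mucosa were not tested within them. In sums over all cells, fewer cells of a type and less RNA per cell cannot be told apart.

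All 8 members differed between tumors and mucosa in sums over all cells. Arg1, Arg2, Nos2, Slc7a2, Il4i1, Acod1 and Slc7a11 were higher in tumors and Ido1 was lower (edgeR quasi-likelihood test, Benjamini-Hochberg adjusted p under 0.05). In the same test 71.4% of 17476 genes were called, 36.5% higher and 34.9% lower, so a call alone was common. For Nos2 tumor and mucosal libraries overlapped, through tumor 3. The share of all genes without overlap is not given, so absence of overlap, stated per member below, does not set the members apart. In the same sums 15 of 15 genes of a dissociation stress list were higher in tumors, with a summed level of 4455 to 7932 CPM against 1349 to 1527 CPM in mucosa, and the part of dissociation in the members' differences was not tested.

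**Figure D1:**
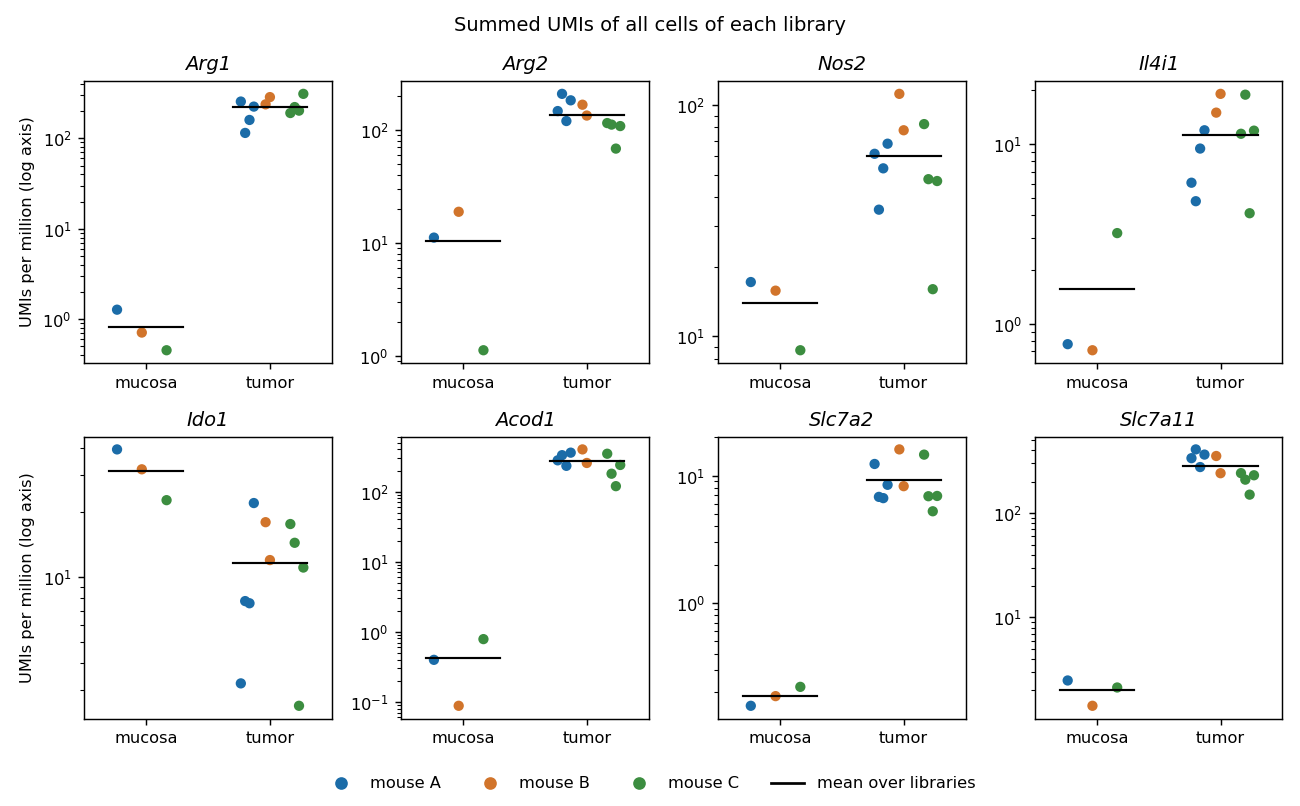
Level of each member in sums over all cells, in CPM on a log axis, for the 3 mucosa samples and 10 tumors. Points are libraries colored by mouse and lines are group means. Ido1 sits lower in tumors (2.53 to 22.1 CPM) than in mucosa (22.8 to 39.3 CPM), and the other 7 members sit higher, with Nos2 overlapping.

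Arg1 (chr10:24915221-24927484, minus strand, mm10) was counted almost entirely in tumors and, within them, mostly in macrophages. In sums over all cells it was 0.454, 1.27 and 0.711 CPM in mucosa 1, 2 and 3, and between 115 and 310.0 CPM in tumors (median 223). Every tumor lay far above every mucosa sample, with a log2 fold change of 8.08 ± 0.45 (SE, edgeR, adjusted p = 8.01e-09). By class, the level in tumors was highest in Spp1+ macrophage-like cells at 1991 ± 526 CPM (mean and SD over the 3 mice, 539 to 3138 over the 10 tumors), followed by C1q+ macrophage-like cells at 1073 ± 181 CPM (532 to 1557). The ranges of these populations overlapped. C1q+ cells and the next class did not overlap, since Ly6c+ monocyte-like cells had 221 ± 142 CPM (44.4 to 496). Spp1+ and C1q+ macrophages carried 44.4% and 43.3% of all Arg1 UMIs of tumors while making up 5.87% and 6.78% of tumor cells. B, T, plasma and natural killer (NK) cell-like cells, which are not known for Arg1, gave 3.78 to 6.27 CPM, a measure of the level that free RNA can leave in a droplet. After thinning every cell to 2000 UMIs, Arg1 was seen in 51.6% of Spp1+ macrophages (median of 10 tumors, 21.8% to 70.4%) and 36.9% of C1q+ macrophages, against 0.645% of B cell-like cells. Before thinning these classes had median depths of 6479, 9382 and 2246 UMIs per cell. In mucosa 160 of the 204 Arg1 UMIs lay in goblet-like cells. The 50 C1q+ macrophages of mucosa held no Arg1 UMI, which allows a level of up to 13.6 CPM (3 UMIs), and the 69 Ly6c+ monocytes held 20. Of these 20, 19 were in the 17 cells of mucosa 2. A test within a class asked for 3 mucosa samples with 20 cells, and 1 had them for C1q+ macrophages and 2 for Ly6c+ monocytes, so no test was run.

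Arg2 (chr12:79130777-79156301, plus strand) differed from Arg1 in the cells that held it. It reached 1.13, 11.1 and 18.9 CPM in mucosa 1, 2 and 3 and 68.2 to 208 CPM in tumors (median 127), with no overlap and a log2 fold change of 3.72 ± 0.66 (edgeR, adjusted p = 1.86e-04). Neutrophil-like cells had the highest level in tumors, at 747 ± 66.0 CPM (638 to 841 over 10 tumors), above the range of every other class. Spp1+ macrophages followed at 262 ± 102 CPM (134 to 364) and Ly6c+ monocytes at 157 ± 56.4 CPM (84.2 to 275), which overlapped each other. C1q+ macrophages, high in Arg1, had 52.9 ± 21.1 CPM of Arg2. Neutrophils made up 33.2% of tumor cells and carried 74.6% of the Arg2 UMIs. In mucosa the source was different, as 92.6% of the Arg2 UMIs came from absorptive epithelial-like cells. There the gene was concentrated in a cluster led by Car1 and Cyp2c55 (cluster 19, 1853 mucosal cells and 1 tumor cell), with 63.6 CPM in mouse A and 137 CPM in mouse B. In mouse C this cluster had 5 mucosal cells with no Arg2 UMI.

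Nos2 (chr11:78920787-78960254, plus strand) was carried by macrophages and by epithelial cells. Its level over all cells was 8.70, 17.2 and 15.7 CPM in mucosa 1, 2 and 3 and ran from 15.98 to 112 CPM in tumors, with a median of 57.4. Tumor 3 lay within the mucosal range and the other 9 tumors above it, and the log2 fold change was 2.14 ± 0.48 (edgeR, adjusted p = 0.00126). Spp1+ macrophages had the highest level among whole classes, at 659 ± 131 CPM (239.6 to 988), without overlap with the next class, and held 59.2% of the tumor UMIs, a share that ran from 36.0% to 70.8% across tumors. A single absorptive cluster of tumors, described below, overlapped with them at 185 to 821 CPM. The next classes were epithelial. A tumor-only epithelial cluster led by Cxcl5 and Krt17 had 122 ± 34.0 CPM (28.6 to 204) and absorptive epithelial-like cells had 102 ± 18.6 CPM (20.3 to 169.6), with overlapping ranges. In C1q+ macrophages, the class next to Spp1+ macrophages in Arg1, Nos2 was seen in few cells, as described below. Lymphoid and plasma cells gave 1.08 to 1.80 CPM. Mucosal Nos2 lay mostly in absorptive cells, with 80.5% of the UMIs.

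Slc7a2 (chr8:40862396-40922308, plus strand), the arginine transporter, had 46 UMIs in all of mucosa, at 0.220, 0.156 and 0.186 CPM in mucosa 1, 2 and 3. Tumors had 5.25 to 16.04 CPM (median 7.59), and no tumor overlapped mucosa. The log2 fold change was 5.64 ± 0.48 (edgeR, adjusted p = 2.70e-07). Spp1+ macrophages had 95.2 ± 23.4 CPM (29.4 to 140.2) and held 53.8% of tumor UMIs, and C1q+ macrophages had 26.9 ± 7.15 CPM (12.7 to 43.3) with 29.9%. Their ranges overlapped. Slc7a2, Nos2 and Arg1 thus shared their leading class in tumors, and Arg2 had another.

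**Figure D2:**
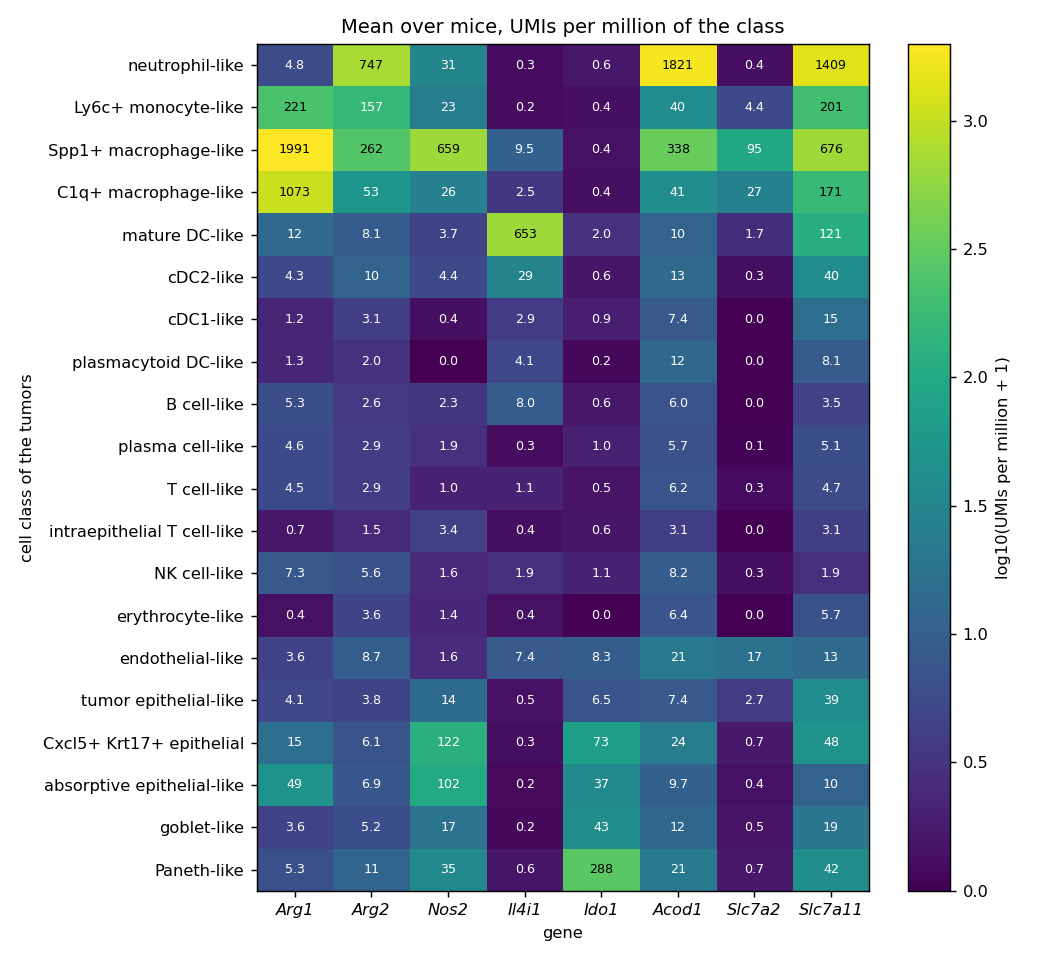
Level of the 8 members (columns) in 20 cell classes of tumors (rows), each the mean over the 3 mice in CPM, colored as log10 of CPM plus 1. Arg1, Nos2 and Slc7a2 are highest in Spp1+ macrophage-like cells, Arg2, Acod1 and Slc7a11 in neutrophil-like cells, Il4i1 in mature DC-like cells and Ido1 in Paneth-like cells.

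Ido1 (chr8:24584136-24597009, minus strand) was an epithelial transcript in both tissues, and the only member with a lower level in tumors in sums over all cells. It reached 22.8, 39.3 and 31.7 CPM in mucosa 1, 2 and 3, and 2.53 to 22.1 CPM in tumors (median 11.5). The groups did not overlap and the level was lower in tumors in 3 of 3 mice, with a log2 fold change of -1.39 ± 0.49 (edgeR, adjusted p = 0.0210). This call was lost without mucosa 2 (-1.17, adjusted p = 0.0980) or without mucosa 3 (-1.37, adjusted p = 0.0570), and when doublets were kept (-0.93, adjusted p = 0.106). In mucosa 85.4% of Ido1 UMIs lay in goblet-like cells, which make mucus. Their level was 37.8, 134 and 128 CPM in mucosa 1, 2 and 3 and 12.3 to 149.8 CPM in the 7 tumors with at least 20 such cells, and the difference within the class did not pass the test (-0.91 ± 0.57, edgeR, adjusted p = 0.351). In tumors the highest level was in Paneth-like cells, which normally secrete antimicrobial peptides, at 288 ± 84.5 CPM (23.8 to 586 over 9 tumors). It was followed by Cxcl5+ Krt17+ epithelial cells at 72.7 ± 19.8 CPM, goblet-like cells at 43.3 ± 32.1 CPM and absorptive cells at 37.5 ± 31.8 CPM, and all neighbors in this order overlapped. Over pooled tumors, Paneth-like cells made up 0.795% of tumor cells and held 36.8% of Ido1 UMIs, and Cxcl5+ Krt17+ cells made up 2.31% and held 29.9%. Tumor 2 held 28.9% of the Paneth-like cells of all libraries, so tumors weigh unequally in these shares and their order in single tumors can differ. Lymphoid and plasma cells were at 0.502 to 0.925 CPM.

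Il4i1 (chr7:44816387-44840809, plus strand, overlapping Nup62 on the same strand) was highest in mature DCs. Over all cells it was 3.19, 0.769 and 0.711 CPM in mucosa 1, 2 and 3 and 4.11 to 19.0 CPM in tumors (median 11.6), with no overlap and a log2 fold change of 2.90 ± 0.62 (edgeR, adjusted p = 8.28e-04). Mature DC-like cells, the migratory state marked here by Ccr7 and Fscn1, had 653 ± 88.4 CPM (459.8 to 848 over 10 tumors), and did not overlap with the next class, as type 2 conventional DCs followed at 29.3 ± 4.09 CPM (5.16 to 52.6). Mature DCs were 1.38% of tumor cells and held 83.6% of the tumor UMIs, with 67.7% to 90.1% across tumors. Their main clusters differed, with 379.9 ± 100.1 CPM in cluster 46 and 924 ± 94.7 CPM in cluster 47. The 14 mature DC-like cells of mucosa held 94 of the 361 mucosal UMIs.

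B cell-like cells showed the opposite difference for Il4i1. Their level was 51.7, 28.5 and 35.5 CPM in mucosa 1, 2 and 3 and from 0 to 25.8 CPM in tumors (median 8.56). The groups did not overlap, the level was lower in tumors in 3 of 3 mice, and the log2 fold change was -2.13 ± 0.30 (edgeR, adjusted p = 5.27e-06). It rested on 103 UMIs in tumors and 123 in mucosa. Il4i1 was the only member that passed the count filter in B cells, where 40.9% of 5622 genes were called and 20.7% were lower in tumors. The call held in all 20 alternatives, with -2.33 to -1.81. At a finer clustering, looked at after these values were seen, 367 mucosal B cells formed a cluster with 24 tumor cells, and the other 717 shared a cluster with 4601 tumor cells. In the shared cluster alone Il4i1 was 48.5, 28.4 and 70.2 CPM in mucosa 1, 2 and 3 (mucosa 2 with 1 UMI in 25 cells) and 0 to 11.7 CPM in tumors (median 8.63), again without overlap. There tumors 7 and 10 held 42 and 36 Il4i1 UMIs and every other tumor 0 to 5. Tumor 4 also held 4 UMIs in 2 cells of the mainly mucosal cluster.

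Acod1 (chr14:103046977-103056573, plus strand) had the largest log2 fold change of the 8 members in sums over all cells. In all, 98 UMIs were counted in mucosa, at 0.783, 0.397 and 0.0875 CPM in mucosa 1, 2 and 3, and 62 of them lay in the 12 neutrophil-like cells of these libraries and 17 in the 40 cells of cluster 43 (383 CPM). Tumors had 119.5 to 400.1 CPM (median 268), and the log2 fold change was 9.41 ± 0.70 (edgeR, adjusted p = 8.58e-08). Neutrophils had 1821 ± 243 CPM (1265 to 2316 over 10 tumors), above every other class, and held 88.7% of tumor UMIs with a share of 85.7% to 94.5% across tumors. Spp1+ macrophages followed at 338 ± 96.8 CPM (147 to 436), again without overlap with the next class, and C1q+ macrophages and Ly6c+ monocytes had 40.7 ± 11.6 and 39.5 ± 9.95 CPM. Lymphoid and plasma cells gave 5.57 to 9.80 CPM. The neutrophil clusters differed among themselves, and the cluster with Rsad2 and Il1f9 among its leading genes (cluster 24, 1419 tumor cells) had 3638 CPM (2619 to 4345). That was above the largest cluster (cluster 1, 12382 cells) at 2194 CPM (1582 to 2462). Cluster 22, led by Ccl3 and Gpnmb, had 1214 CPM (849 to 1592), and cluster 2, with Ngp and Mmp9 among its leading genes, had 992 CPM (832 to 1175). Arg2 spread differently over these clusters, with 873, 808, 365 and 672 CPM in clusters 24, 1, 22 and 2, and Slc7a11 had 1583, 1543, 1411 and 1186 CPM.

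Of the 8 members 3, Il4i1, Acod1 and Slc7a11, were matched to a RefSeq promoter. The 250 bases before the RefSeq starts of Acod1 and Slc7a11, which like Arg2 have neutrophils as their leading class in CPM, are shown 5′ to 3′ on the coding strand, from RefSeq (GRCm38.p6), with the motifs found in capitals. They lie at chr14:103046762-103047011 (plus) and chr3:50443614-50443863 (minus).
Acod1: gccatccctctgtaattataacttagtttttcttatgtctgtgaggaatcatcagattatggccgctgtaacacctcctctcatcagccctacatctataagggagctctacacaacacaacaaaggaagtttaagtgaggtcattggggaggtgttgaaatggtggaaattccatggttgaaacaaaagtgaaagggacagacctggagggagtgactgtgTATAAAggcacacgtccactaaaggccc
Slc7a11: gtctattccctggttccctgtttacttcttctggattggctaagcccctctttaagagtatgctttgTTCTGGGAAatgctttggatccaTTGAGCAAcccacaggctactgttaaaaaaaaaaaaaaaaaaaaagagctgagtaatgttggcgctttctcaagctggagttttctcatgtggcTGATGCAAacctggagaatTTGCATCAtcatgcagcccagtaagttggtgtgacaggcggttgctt
Both strands were searched for TATAAA and for the usual cores of the antioxidant (TGACNNNGC) and amino acid (TGATGNAA) response elements and of AP-1 (TGANTCA), C/EBP (TTGCNNAA) and STAT (TTCNNNGAA) sites, and for the interferon response element and the NF-kB site. The RefSeq start of Acod1 lies downstream of the gene start in the coordinates given above, so that the window reaches into the gene as annotated there. The Acod1 window held TATAAA 28 to 23 bases before the RefSeq start, a match present in 12.4% of 32851 promoter windows of this length. The Slc7a11 window held the amino acid response core on both strands, as TGATGCAA 66 to 59 and as TTGCATCA 47 to 40 bases before the start, and 3.45% of windows held at least 1 such core. It also held a C/EBP match (TTGAGCAA, 160 to 153 bases before the start, 9.56% of windows) and a STAT match (TTCTGGGAA, 183 to 175 bases, 7.02%). Neither window held the other cores in the forms given, which occurred in 10.2% (antioxidant), 2.98% (interferon), 6.75% (AP-1) and 1.41% (NF-kB) of windows. Other forms of these sites were not searched. These are matches of letters and not measured binding.

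Slc7a11 (chr3:49892526-50443614, minus strand) was found in each of the myeloid classes below. It was 2.13, 2.49 and 1.42 CPM in mucosa 1, 2 and 3 and 150.3 to 408 CPM in tumors (median 259), with no overlap and a log2 fold change of 7.15 ± 0.42 (edgeR, adjusted p = 1.29e-08). Neutrophils had 1409 ± 206 CPM (1097 to 1749) and Spp1+ macrophages 676 ± 164 CPM (443 to 872), and neither range overlapped with the next class. Neutrophils held 124277 Slc7a11 UMIs in 28569 cells and Spp1+ macrophages 22971 in 5048 cells, at median depths of 2674 and 6479 UMIs. The lead of neutrophils in CPM was thus not a lead in UMIs per cell. Ly6c+ monocytes had 201 ± 37.0 CPM (151 to 254), C1q+ macrophages 171 ± 47.4 CPM (107 to 274) and mature DCs 121 ± 14.3 CPM (82.6 to 156). Neutrophils held 68.4% of the tumor UMIs (64.3% to 72.8% across tumors) and Spp1+ macrophages 12.6%. Epithelial cells of tumors held it at lower levels, with 48.3 ± 16.9 CPM in the Cxcl5+ Krt17+ cluster, against 1.96 to 5.31 CPM in lymphoid and plasma cells.

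**Figure D3:**
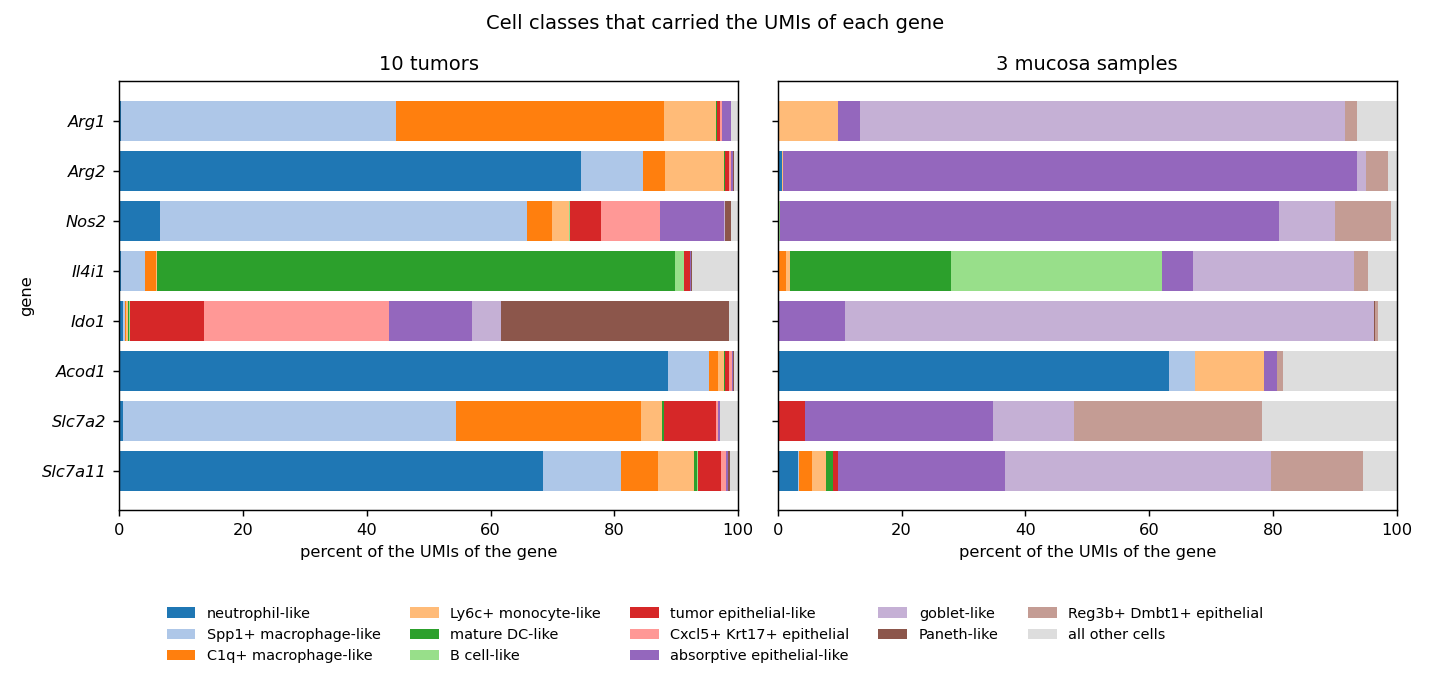
Share of each member's UMIs carried by each cell class, in percent, in the 10 tumors (left) and the 3 mucosa samples (right). In tumors neutrophils carry 74.6% of Arg2, 88.7% of Acod1 and 68.4% of Slc7a11, mature DCs carry 83.6% of Il4i1, and in mucosa absorptive and goblet-like epithelial cells carry most of Arg2, Nos2 and Ido1.

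Epithelial cells, which both tissues held, were then compared. Their sums joined different clusters in the tissues, mainly clusters 4, 10 and 15 in tumors (6697, 4026 and 1986 tumor cells against 119, 3 and 0 mucosal cells) and clusters 13, 14, 17, 18, 19 and 20 in mucosa, so a difference in makeup and a change within like cells cannot be told apart. Over all epithelial cells 7 of 8 members passed the test, 5 higher and 2 lower in tumors, beside 64.6% of 15423 genes (34.2% higher and 30.4% lower). Slc7a11 was 34.7 ± 9.96 CPM (SD, n = 10) in tumors against 1.92 ± 0.461 CPM (SD, n = 3) in mucosa, a log2 fold change of 3.91 ± 0.31 (edgeR, adjusted p = 4.10e-07). Slc7a2 was 2.06 against 0.208 CPM (3.01 ± 0.57, edgeR, adjusted p = 4.28e-04). Arg1, at 12.5 against 0.774 CPM (3.77 ± 0.89, edgeR, adjusted p = 0.00222), and Acod1, at 10.1 against 0.0135 CPM (9.00 ± 0.99, edgeR, adjusted p = 5.39e-06), were also higher. Of the 3248 epithelial Arg1 UMIs of tumors 2100 lay in cluster 23, an absorptive cluster, while tumor epithelial-like cells had 3.44 CPM over pooled tumors, below the 3.78 to 6.27 CPM of lymphoid and plasma cells pooled likewise. Nos2 was 38.7 against 14.997 CPM (1.11 ± 0.43, edgeR, adjusted p = 0.0339), with overlapping groups, and this call was lost without mucosa 1, 2 or 3 (adjusted p = 0.141, 0.0592 and 0.0683) or without tumor 8 (0.0501). Arg2 was lower at 4.81 against 10.97 CPM (-1.46 ± 0.54, edgeR, adjusted p = 0.0296), and Il4i1 at 0.35 against 0.5682 CPM (-0.96 ± 0.38, edgeR, adjusted p = 0.0373). With the mouse as a block neither passed (adjusted p = 0.127 and 0.0563), and each was higher in tumors in 1 of 3 mice. Arg2 lost its call in 6 of 20 alternatives, with -0.65 without mucosa 3 (adjusted p = 0.384) and -0.12 when doublets were kept (adjusted p = 0.856). Il4i1 lost it in 8 of 19, with -0.40 without mucosa 1 (adjusted p = 0.406). Ido1 had 28.8 against 33.0 CPM (-0.48 ± 0.56, edgeR, adjusted p = 0.472).

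Acod1 and Slc7a11 were set against neutrophil genes in epithelial, lymphoid and plasma cells. Per 100 UMIs of the neutrophil genes S100a8 and S100a9, over pooled tumors, neutrophils held 0.899 UMIs of Acod1, absorptive cells 0.882 and goblet-like cells 0.714. Plasma cells held 1.07, B cells 1.65, T cells 1.95 (0.966 to 3.23 across tumors), tumor epithelial-like cells 1.19 and Cxcl5+ Krt17+ cells 2.16. Spp1+ macrophages held 23.2. For Slc7a11 the ratio was 0.709 in neutrophils, 0.956 in absorptive cells, 0.998 in plasma cells and 1.08 in goblet-like cells, and it was larger in tumor epithelial-like cells (6.84), Cxcl5+ Krt17+ cells (4.69) and Spp1+ macrophages (46.0). Across tumors the Slc7a11 ratio of goblet-like cells ran from 0.498 to 33.3 (median 2.12), against 0.488 to 0.942 (median 0.6996) in neutrophils. In goblet-like cells, where 9.71% of 7624 genes were called and 6.48% were higher, 2 of 4 tested members were higher in tumors. They were Acod1, which had 82 UMIs in tumors while mucosa had 0 (a difference of at least 327-fold for tumors pooled and 30.7-fold for the lowest tumor, over a floor of 3 UMIs over the group, edgeR, adjusted p = 0.00146), and Slc7a11, at 20.7 against 2.71 CPM (3.04 ± 0.31, edgeR, adjusted p = 1.61e-04). Nos2 (1.81 ± 0.58, edgeR, adjusted p = 0.0658) and Ido1, given above, did not pass. In the goblet-like cluster most shared by the tissues (cluster 18, 350 tumor and 1564 mucosal cells, chosen after its values were seen), 2 of 4 tested members, Acod1 and Slc7a11, were higher, beside 4.11% of 6836 genes called and 2.78% higher, and Nos2 (0.98 ± 0.50, edgeR, adjusted p = 0.301) and Ido1 (-0.93 ± 0.53, edgeR, adjusted p = 0.361) did not pass. In plasma cells 4 of 5 tested members passed, beside 27.0% of 9452 genes, and their tumor means were 2.89 to 5.55 CPM. Mucosal plasma cells held 2 UMIs of Arg1 and 0 of Arg2, Acod1 and Slc7a11, so these met the count filter through tumors. Over a floor of 0.841 CPM (3 UMIs), pooled tumors were 3.56-fold for Arg2, 6.76-fold for Acod1 and 6.32-fold for Slc7a11. The lowest tumors were 0.675-fold, 1.35-fold and 1.58-fold. Such low levels in plasma cells were used above as a measure of free RNA. Nos2 did not pass there (1.15 ± 1.42, edgeR, adjusted p = 0.586). The calls of Acod1 and Slc7a11 held in all 20 alternatives, and those of Arg1 and Arg2 were lost without mucosa 1, 2 or 3 (adjusted p = 0.1001 to 0.117 and 0.0669 to 0.0825). In T cells none of the 4 tested members, Arg1, Arg2, Acod1 and Slc7a11, passed (edgeR, adjusted p = 0.0637 to 0.2905), beside 20.2% of 9852 genes. Their unadjusted p (edgeR) were 0.0436, 0.131, 0.0144 and 0.04165, and no share of all genes at an unadjusted threshold is given. DESeq2 called 1 member (Acod1) beside 19.2% of genes. Acod1 gained the call in 5 of 19 alternatives, among them the mouse as a block. Arg2 gained it in 1 of 10 and Slc7a11 in 1 of 20.

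Absorptive epithelial-like cells had higher Arg1, Nos2, Acod1 and Slc7a11 and lower Arg2 in tumors, so that 5 of 6 tested members passed beside 35.8% of 11539 genes (19.7% higher and 16.1% lower). Arg1 was 11.5 to 94.4 CPM in tumors (median 37.0) against 0.0216 to 0.113 CPM in mucosa (9.08 ± 0.94, edgeR, adjusted p = 1.02e-05). Nos2 was 20.3 to 169.6 CPM (median 92.1) against 24.6 to 37.8 CPM (1.72 ± 0.50, edgeR, adjusted p = 0.0149), and this call was lost without mucosa 2 (adjusted p = 0.0640) or mucosa 3 (0.0726). Arg2 was 1.41 to 13.6 CPM in tumors (median 6.29) and 2.67, 19.4 and 35.3 CPM in mucosa 1, 2 and 3 (-1.56 ± 0.49, edgeR, adjusted p = 0.0213). Arg2 did not pass with the mouse as a block (-1.10, adjusted p = 0.0704) or without mucosa 3 (-0.78, adjusted p = 0.325). It was higher in tumors in 1 of 3 mice. In mucosa Arg2 was concentrated in cluster 19, which had 1 tumor cell, so makeup and a change within like cells cannot be told apart. Acod1 (8.26 ± 1.19, edgeR, adjusted p = 1.17e-04) and Slc7a11 (2.96 ± 0.61, edgeR, adjusted p = 0.00156) also passed, and Ido1 did not (1.80 ± 0.92, edgeR, adjusted p = 0.142). The class was made of different clusters in the tissues, mostly clusters 16 and 23 in tumors and 17, 19 and 20 in mucosa. In tumors cluster 23 carried 2100 of the 2171 Arg1 UMIs and 3538 of the 3962 Nos2 UMIs of the class, while cluster 16, with 1435 tumor and 532 mucosal cells, held 65 and 408. The comparison was therefore repeated within cluster 23, chosen after its values were seen.

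In cluster 23, an absorptive cluster led by Saa1, Car4, Ly6m and Aqp8 with 715 tumor and 913 mucosal cells, tumors and mucosa differed widely in both Arg1 and Nos2. No Arg1 UMI was counted in this cluster in any mucosa sample, while tumors held 2100 UMIs at 53.9 to 695 CPM (median 166). Each of the 10 tumors held at least 34 UMIs, and the level of the lowest tumor was at least 185-fold and that of all tumors pooled at least 945-fold over mucosa, taken at the floor of 0.291 CPM that 3 UMIs over the mucosal group allow, a floor that covers counting error only (edgeR, adjusted p = 3.39e-05). Nos2 was 168, 75.9 and 71.8 CPM in mucosa 1, 2 and 3 and 185 to 821 CPM in tumors (median 497), without overlap (2.17 ± 0.46, edgeR, adjusted p = 0.00181). Both calls held in all 17 alternatives. The macrophage genes Spp1, Fn1 and Inhba had 63 UMIs in all in these tumor cells. Per 100 UMIs of these 3 genes, cluster 23 held 3333 UMIs of Arg1, against 55.9 in Spp1+ and 39.8 in C1q+ macrophages, and 5616 UMIs of Nos2, against 20.2 in Spp1+ macrophages. After thinning to 2000 UMIs per cell, 14.2% of cluster 23 cells of tumors held Arg1 (median over tumors) and 43.7% held Nos2. Acod1 (at least 57.6-fold over tumors pooled and 5.42-fold in the lowest tumor, edgeR, adjusted p = 0.00256) and Slc7a11 (17.2 against 0.646 CPM, edgeR, adjusted p = 0.00492) were also higher, so 4 of 6 tested members passed beside 34.6% of 6733 genes (17.4% higher). Their ratios to S100a8 and S100a9 were 0.553 and 0.509 over pooled tumors, and across tumors they ran from 0.0458 to 2.003 and from 0 to 1.502, which overlapped with neutrophils (0.531 to 1.39 and 0.488 to 0.942). Ido1, at 5.06 to 440.4 CPM in tumors (median 87.2) and 43.3, 21.9 and 24.1 CPM in mucosa 1, 2 and 3, did not pass (1.88 ± 0.81, edgeR, adjusted p = 0.0836), but gained the call in 3 of 17 alternatives, without the count filter (0.0484), with tumors summed per mouse (0.0102) and without tumor 3 (0.0251). Arg2, at 9.87 CPM in tumors against 4.22 CPM in mucosa, did not pass (1.19 ± 0.67, edgeR, adjusted p = 0.186).

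**Figure D4:**
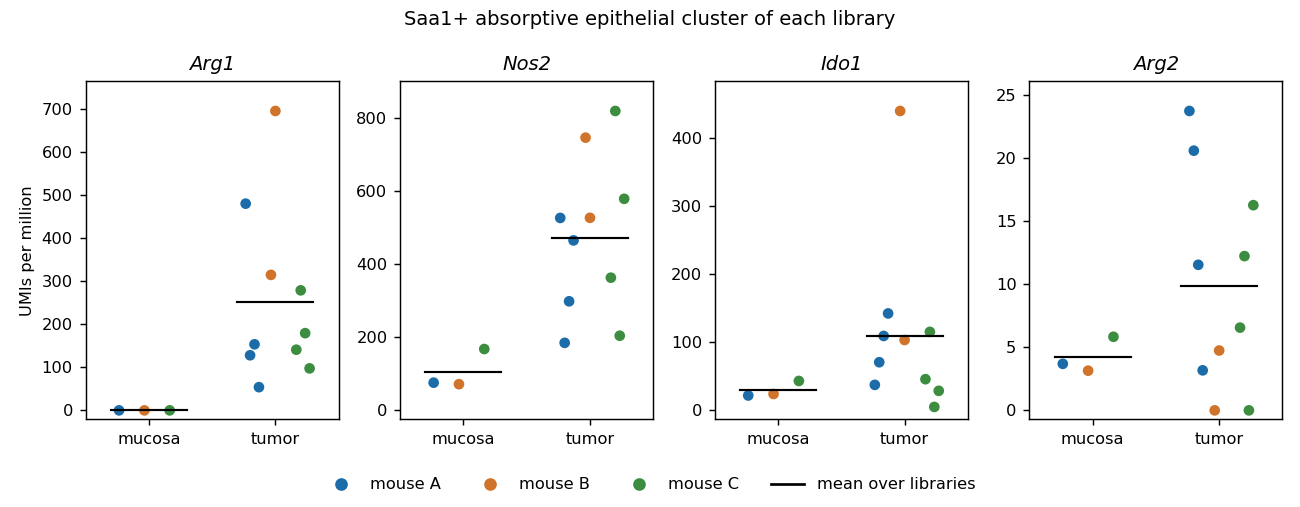
Level of Arg1, Nos2, Ido1 and Arg2 in the Saa1+ Car4+ colonocyte cluster (cluster 23) in CPM, for the 3 mucosa samples and 10 tumors, with points colored by mouse and lines at group means. Arg1 is at 0 in all 3 mucosa samples and at 53.9 to 695 CPM in tumors, and Nos2 does not overlap between groups.

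Members were also compared between the mice among the 10 tumors. In all-cell sums none of the 8 members was called between mice by edgeR, beside 1.32% of 17400 genes. The smallest unadjusted p (edgeR) were 0.0222 for Slc7a11 and 0.0428 for Arg2. No share of all genes at an unadjusted threshold is given, so these values have no background. DESeq2 called 1 member, Slc7a11, beside 11.6% of the 17400 genes. Within Spp1+ macrophages Arg2 was 134, 168, 158 and 135 CPM in the tumors of mouse C, 347, 364, 335 and 333 CPM in those of mouse A, and 267 and 321 CPM in those of mouse B. Mouse C lay below the others without overlap (edgeR, adjusted p = 0.00142), and this held in 15 of 15 alternatives. Slc7a11 in the same cells was 443 to 535 CPM in mouse C and 587 to 872 CPM in mice A and B (edgeR, adjusted p = 0.0108), a call lost without tumor 4 (0.0507), and Acod1 also passed (edgeR, adjusted p = 0.0466) but was lost in 8 of 15 alternatives. The 3 members were called beside 4.50% of 9013 genes. These classes were picked for testing after their levels were seen.

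The same order held for Arg2 in the other mononuclear myeloid classes. In Ly6c+ monocytes Arg2 was 84.2 to 112 CPM in mouse C and 159 to 275 CPM in mice A and B (edgeR, adjusted p = 0.00107). Arg1 went the other way there, at 179 to 496 CPM in mouse C, 44.4 to 229.8 CPM in mouse A and 161 to 172 CPM in mouse B (edgeR, adjusted p = 0.0116), and both calls held in 15 of 15 alternatives. Slc7a11, at 151 to 181 CPM in mouse C and 185 to 254 CPM in mice A and B, was the remaining call (edgeR, adjusted p = 0.0210), beside 6.82% of 9832 genes. It was lost without tumor 1, 4, 5 or 6 (adjusted p = 0.0506 to 0.0874). In C1q+ macrophages, where 3.53% of 11294 genes were called, Arg2 was 20.8 to 32.5 CPM in mouse C and 55.5 to 87.1 CPM in mice A and B (edgeR, adjusted p = 0.0190). That call was lost without tumor 1 (0.0509) or tumor 4 (0.0704), and the call of Slc7a11 (adjusted p = 0.0498) was lost in 10 of 15 alternatives. In neutrophils none of the 5 tested members passed (edgeR), beside 11.6% of 9476 genes. DESeq2 called 2, Nos2 and Slc7a11, beside 13.2% of genes. Their unadjusted edgeR p were 0.0165 and 0.01075, for which no share of all genes is given. Mouse and age cannot be told apart here.

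**Figure D5:**
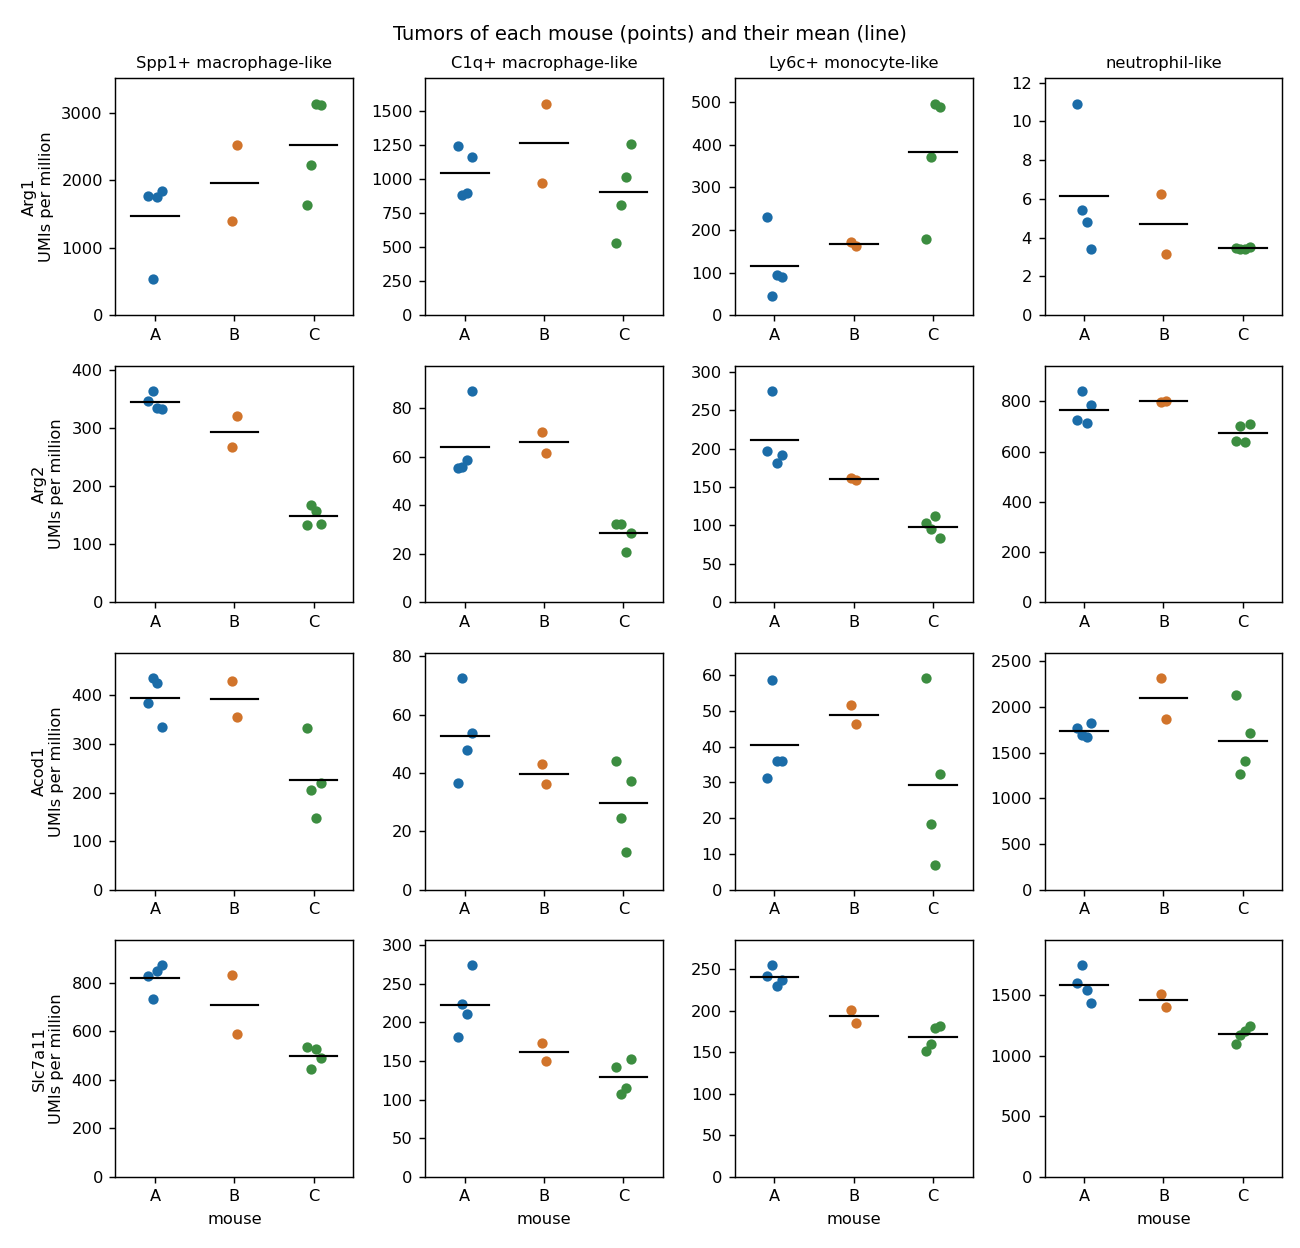
Level of Arg1, Arg2, Acod1 and Slc7a11 in Spp1+ macrophage-like, C1q+ macrophage-like, Ly6c+ monocyte-like and neutrophil-like cells of each tumor, in CPM, grouped by mouse. Points are tumors and lines are means per mouse. Arg2 is lowest in the 4 tumors of mouse C in both macrophage classes and in monocytes, while Arg1 in monocytes is higher in mouse C than in most tumors of mice A and B.

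Detection of pairs of members in the same cells was then compared. In Spp1+ macrophages thinned to 2000 UMIs, Nos2 was seen in 52.3% of cells with Arg1 and 30.1% of cells without (medians over tumors), and the share was larger in cells with Arg1 in 10 of 10 tumors. Slc7a2 was seen in 16.8% of cells with Nos2 and 6.34% of cells without, again in 10 of 10 tumors. Acod1 was seen in 44.5% of cells with Nos2 and 33.6% of cells without in 10 of 10 tumors, and in 9 of 10 at 1000 UMIs. Slc7a11 was seen in 67.5% of cells with Arg1 and 56.9% of cells without (10 of 10 tumors). Nos2 was seen in 41.6% of cells with Arg2 and 41.7% of cells without (5 of 10 tumors). Between Arg1 and Acod1 the order was the other way in Spp1+ macrophages, with 34.5% against 41.8%, and the share was larger in cells with Arg1 in 1 of 10 tumors. In C1q+ macrophages Acod1 was seen in 7.05% of cells with Arg1 and 3.68% of cells without (larger in 9 of 10 tumors). Arg2 likewise was seen in 35.2% of Spp1+ macrophages with Arg1 and 41.4% without (larger in 3 of 10). In C1q+ macrophages it was 12.8% against 6.90% (larger in 9 of 10). In C1q+ macrophages 5.41% of cells with Arg1 and 0.859% of cells without held Nos2. In neutrophils Slc7a11 was seen in 88.0% of cells with Acod1 and 80.0% of cells without, and Acod1 in 83.1% of cells with Arg2 and 75.9% of cells without, each in 10 of 10 tumors. In that class 80.5% of cells held Acod1, 70.7% Arg2 and 86.7% Slc7a11 at this depth, while B cell-like cells held 0.553%, 0% and 0.137%. Thinning left out 124 of 5048 Spp1+ macrophages and 6159 of 28569 neutrophils as too shallow, and the unthinned shares in neutrophils were 82.7%, 78.3% and 89.3%. These shares are descriptions of cells of the same libraries and carry no test.

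The genes whose levels over 20 tumor classes were most like a member's were taken from 6271 genes that reached 50 CPM in a class, by Pearson correlation of log2(CPM + 1). Classes share libraries, so no p is given. The genes most like Arg1 were Ccl24 (r = 0.915), the scavenger receptor Msr1 (0.909) and the integrin Itgb5 (0.907), and those most like Slc7a2 were Pdpn (0.929), Cxcl14 (0.912) and the collagenase Mmp13 (0.908). Nos2 was followed by Rhou (0.896), the heme synthesis enzyme Alas1 (0.848) and the oxygen-sensing hydroxylase Egln3 (0.832). For Arg2 they were the lectin receptors Clec4e (0.989) and Clec4d (0.981) and haptoglobin, Hp (0.975), all highest in neutrophils. Acod1 was closest to the receptor Hcar2 (0.990), Mirt2 (0.941) and Trem1 (0.933), and Slc7a11 to Rhov (0.924), the chemokine Cxcl2 (0.923) and Pla2g7 (0.913). Il4i1 was closest to the chemokine Ccl22 (0.863), the chemokine receptor Ccr7 (0.856) and Il12b (0.808), all 3 of them among the markers that named mature DCs. Ido1 was closest to the epithelial genes Liph (0.947), Guca2b (0.946), the precursor of uroguanylin, and Sel1l3 (0.936).

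Other genes of the same pathways were counted in the all-cell comparison of tumors with mucosa, where the median log2 fold change over all genes was 0.02, with 36.5% of genes higher and 34.9% lower. These shares, 71.4% in all, are the background of each count. Of 29 tested arginine and polyamine genes, 11 were higher and 11 lower in tumors (75.9% called, near the 71.4% of all genes), with a median of 0.02. Ass1, which rebuilds arginine from citrulline, rose from 25.1 to 126 CPM (2.36 ± 0.31, edgeR, adjusted p = 1.22e-05) and was highest in Spp1+ macrophages at 840.3 CPM. Odc1, which turns ornithine into polyamines, was 172 against 134 CPM (0.38 ± 0.15, edgeR, adjusted p = 0.0328), with its highest level in T cells at 1463 CPM. Sat1, which acetylates polyamines, rose by 1.28 ± 0.19 on the log2 scale and Agmat, which makes putrescine from agmatine, by 3.47 ± 0.64. Otc, the urea cycle enzyme that uses ornithine, fell from 25.3 to 0.224 CPM (-6.79 ± 0.60, edgeR, adjusted p = 3.36e-07), and Ddah1, which degrades an inhibitor of nitric oxide synthases, from 125 to 12.05 CPM.

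Of 16 tested tryptophan and kynurenine genes, 6 were higher and 7 lower in tumors (81.2% called against 71.4% of all genes), with a median log2 fold change of 0.51. Kmo and Kynu, the enzymes downstream of kynurenine, were higher at 2.72 against 0.341 CPM (3.03 ± 0.34, edgeR, adjusted p = 3.09e-06) and 2.52 against 0.275 CPM (3.23 ± 0.38, edgeR, adjusted p = 5.24e-06). Kmo was highest in plasmacytoid DCs at 82.9 CPM. The aryl hydrocarbon receptor Ahr, which kynurenine can activate, was 30.3 against 11.6 CPM and its target Tiparp 125 against 17.0 CPM. By tumor class, Ahr was highest in type 1 conventional DCs (203 CPM) and Tiparp in neutrophils (300 CPM). Ahrr, Cyp1b1 and Cyp1a1 of the same list reached at most 1.74, 2.21 and 0.167 CPM in any tumor class, and activity of Ahr was not tested. The amino acid transporter Slc7a8 was 16.8 against 1.35 CPM. Tph1, which makes serotonin from tryptophan, fell from 16.05 to 0.853 CPM (-4.21 ± 0.58, edgeR, adjusted p = 1.99e-05) and the tryptophanyl-tRNA synthetase Wars from 89.0 to 47.2 CPM.

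The itaconate list, mostly Krebs cycle genes, had 2 of 13 tested members higher and 11 lower in tumors, with a median of -0.98, beside 36.5% of all genes higher and 34.9% lower. Sdhb, a subunit of the succinate dehydrogenase that itaconate inhibits, was 157 against 408 CPM (-1.36 ± 0.19, edgeR, adjusted p = 2.15e-05). Clybl, which takes part in the breakdown of itaconate, was 8.78 against 48.1 CPM. The members that rose were the dicarboxylate transporter Slc13a3 (1.08 against 0.00458 CPM) and Rab32 (35.0 against 7.46 CPM), a small GTPase. In epithelial cells alone 1 of 12 tested genes of this list was higher and 10 lower, beside 34.2% of all genes higher and 30.4% lower there.

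Of 14 cystine, glutathione and NRF2 genes, 7 were higher and 4 lower in tumors (78.6% called, near the 71.4% of all genes), with a median of 0.19. Slc3a2, the heavy chain that pairs with Slc7a11, rose from 39.3 to 152 CPM (1.97 ± 0.19, edgeR, adjusted p = 6.16e-07), Gsr, which regenerates glutathione, from 129 to 235 CPM, and the heme oxygenase Hmox1 from 2.31 to 148 CPM with its highest level in Spp1+ macrophages (645 CPM). Gclm, a subunit of the enzyme that starts glutathione synthesis, fell from 153 to 69.9 CPM (-1.12 ± 0.14, edgeR, adjusted p = 1.13e-05) and Nqo1, a textbook NRF2 target, from 28.7 to 2.30 CPM. Of 10 genes of the ATF4 response to amino acid limitation, 6 were higher and 2 lower (80.0% called), with a median of 1.14. Atf4 was 169.8 against 92.2 CPM (0.90 ± 0.19, edgeR, adjusted p = 8.49e-04), and Atf3, also on the stress list, 296 against 20.4 CPM. Of 19 known inducers of the members, 15 were higher and none lower by edgeR (78.9% called, beside 36.5% of all genes higher), with a median of 1.67. They included Cebpb (1012 against 62.7 CPM), Hif1a (205 against 44.7 CPM), Tnf (70.8 against 4.49 CPM) and Csf3r (124 against 0.323 CPM), a receptor carried by neutrophils. Ifng, the interferon that induces Ido1 and Nos2, was 13.9 against 7.46 CPM and did not pass (0.95 ± 0.75, edgeR, adjusted p = 0.267).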

How the data were processed

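The authors deposited raw UMI counts per gene and cell barcode for each of the 13 libraries (10x 3′ v3.1), made with Cell Ranger 6.0.0 on mm10 per the labels' processing notes. Cells needed 500 or more UMIs, 200 or more genes and a mitochondrial share below 25%, and 10397 predicted doublets were removed, leaving 108495 of 137591. Cells were clustered (leidenalg 0.10.2, resolution 1, 2000 variable genes without the members, 30 components) into 44 clusters, those that mixed dendritic cell subsets were split again at resolution 0.5, which gave 50 clusters and the mature DC-like ones, and clusters were named from fixed marker lists, with naming thresholds set after cluster profiles were seen. Cluster 50 (310 tumor cells), which the lists named Spp1+ macrophage-like, was left unnamed after its leading genes, with Ccl17 first, were seen. Libraries shared at most 61 cell barcodes. Counts were summed per library over all cells or a class with at least 20 cells and tested across libraries with edgeR 4.0.16 (filterByExpr, TMM, quasi-likelihood, Benjamini-Hochberg over all genes, called under 0.05) in R 4.3.3, and with DESeq2 1.42.0 as an alternative. On simulated counts for the all-cell comparison, 91.8% of 61 genes raised 4-fold and 50.0% of 42 genes raised 2-fold were called, with 17172 genes tested. There 16978 genes were left unchanged, whereas 71.4% of genes were called in the data. Adjustment for multiple testing was therefore stricter in the simulation, and these shares do not give the power of the real comparison. Floors cover counting error only, while SDs and SEs include the spread between mice or libraries. The SE of an edgeR log2 fold change was taken as its absolute value over the square root of the quasi-likelihood F.

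The animal code pairs tumors with mucosa. Deviations of same-animal samples correlated at 0.1239, 0.0162 and 0.0996 in mice A, B and C, and the fit with mouse as a block is given where it changes a call. Replicate numbers in the labels do not mark animals. The naming rule took all 8 members in every comparison. Between tissues the tested members are given and those not mentioned for a class failed the count filter there, while between mice within classes the called members are given. From each pathway list the 3 largest called changes, the 3 highest levels in tumors and genes compared directly with a member were candidates for naming. The members and lists were chosen with earlier results of these data known. A pathway gene that the naming rule picked is not reported here.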

Additional observations from a re-analysis of the deposited data

How the results depend on the processing

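The 7 members higher in tumors over all cells passed in all 21 alternatives, and no direction of a called member reversed. Of 849 values for single members under an alternative, 798 stayed on the same side of the threshold, 35 lost the call and 16 gained it. With mouse as a replicate block the call changed for Arg2 in absorptive cells (-1.10, adjusted p = 0.0704), for Arg2 (-0.92, 0.127) and Il4i1 (0.0563) over all epithelial cells and for Acod1 in T cells (6.09, 0.0199). The number of members lower in tumors fell from 1 to 0 over all cells when doublets or every barcode were kept (0 to 1 leaving out a library), from 1 to 0 in absorptive cells with the block, with tumors summed per mouse or with doublets kept (0 to 1), and from 2 to 0 over all epithelial cells under those settings and at 10% mitochondrial UMIs (1 to 2). The number higher rose from 0 to 3 in B cells (no count filter or doublets kept), from 0 to 1 (no filter, block or DESeq2) or 3 (doublets kept) in T cells (0 to 1 leaving out a library), and from 2 to 4 in goblet-like cells (no filter, summed per mouse or doublets kept, 1 to 2 leaving out a library). Leaving out a library moved plasma cells from 4 to as few as 2 higher (2 to 4) and from 0 to 1 lower. In cluster 18 the 2 members higher became 4 without the filter, with 1 then lower in place of 0, and 1 with tumors summed per mouse (1 to 2 leaving out a library). The shares of all genes called under these settings are not given, so a shift in member counts cannot be told apart from a general shift in calls.

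Between mice over all cells, 230 genes were called, 145 without the filter, 2011 by DESeq2 and 0 to 753 leaving out a tumor, with 1 member by DESeq2 in place of 0. Members called in Spp1+ macrophages went from 3 to 5 without the filter (1 to 3 leaving out a tumor, lowest without tumor 4), in C1q+ macrophages from 2 to 5 without the filter and 1 with doublets kept (0 to 2), in Ly6c+ monocytes from 3 to 5 without the filter, and in neutrophils from 0 to 2 (no filter or DESeq2) or 1 (doublets kept). These counts also stand without the share of all genes called under each setting, and cannot be told apart from a general shift in calls. At 1000 UMIs per cell the share of Spp1+ macrophages with Acod1 was higher beside Arg1 in 0 tumors in place of 1, and beside Nos2 in 9 in place of 10. The causes were not tested. With 3 mucosa samples from 3 mice, and fewer than 20 cells named as neutrophils, Spp1+ macrophages or mature DCs in every mucosa sample (a further 40 mucosal cells with neutrophil markers stayed unnamed), levels within these classes were not tested between tissues.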
